A study of Mus musculus with 9 samples.

Results

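Injection of concanavalin A (Con A), a plant lectin that binds glycoproteins on T cells and activates them, is a standard way to provoke an acute T cell hepatitis in mice. The comparison described here sets 3 liver libraries of C57BL/6J mice injected with Con A against 3 liver libraries of C57BL/6J mice injected with saline. WT mice received PBS by gavage for 4 weeks and PBS into the tail vein. Con A mice received the same 4 weeks of PBS gavage and 10 mg/kg of Con A into the tail vein on the day the liver was taken. No allele was altered in either group, and both groups share the 4 weeks of gavage. A further group of 3 libraries, FMT-Con A, comes from mice that had faeces of mice with Con A hepatitis by gavage for 4 weeks and then the same injection. Its libraries enter the count filter, the normalisation and the shared estimate of spread, and their own levels are not given. With the 6 WT and Con A libraries alone 16836 genes passed the filter, against 17704 with FMT-Con A included. The labels give neither the age of the mice nor the hours between injection and collection. They contradict each other on sex. Genes of the Y chromosome were expressed in WT (Ddx3y at 193 CPM) and Xist, the transcript that silences an X chromosome in females, stood at 3.39 CPM. A list of 6 genes kept as a check of sex summed to 327, 252 and 461 CPM in WT. In Con A the sums were 232, 248 and 216 CPM. Log2 changes of its members, Con A over WT, ran from -1.22 to -0.48. Whether both groups were of the same sex was not tested.

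All 6 libraries titled WT or Con A were used, of 9 in the series, and every gene that passed a count filter applied by group was a member: 17704 of the 56719 genes in the files. Library totals ran from 20513051 to 22770276 counts in WT and from 21772376 to 25890947 in Con A. Levels are CPM, counts scaled to the normalised size of each library. They do not correct for gene length, so they compare libraries and not genes. Changes are given as log2 of Con A over WT with their standard error (SE), and tested with edgeR's quasi-likelihood test. A gene passed where its adjusted p was under 0.05. Where leaving out 1 library ended a call, or moved a printed change, ratio or list count by over 1.5 times or to or from 0, the value without that library follows a semicolon, as in "without WT 1". The labels number the libraries and do not otherwise say that each is a separate animal, so the p-values may measure a spread that is technical. In whole liver, fewer cells of a type and less RNA per cell cannot be told apart. Hepatocyte markers were abundant in every library, with summed levels of 74210, 71360 and 80340 CPM in WT and 77630, 67760 and 63540 CPM in Con A, so the tissue label holds.

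T cells that meet Con A on the liver's resident macrophages and sinusoidal endothelium release interferon-gamma and tumour necrosis factor. Interferon-gamma acts through the kinases JAK1 and JAK2 and on to GAS elements in promoters. Tumour necrosis factor acts through NF-kappaB. Interleukin-6 acts through STAT3 and drives the hepatic acute phase response, in which hepatocytes switch secretion from albumin-type carriers towards defence and clotting proteins. Of the 17704 genes, 11219 passed, which is 63.4%, with 32.5% higher and 30.9% lower in Con A. The median log2 change over all tested genes was 0.0064. A further measure is whether all libraries of one group lie above all of the other, and that held for 69.8% of genes. Counts of a gene group below are read against these shares. Changes of at least 4-fold were called upwards for 10.3% and downwards for 9.28% of genes. The Con A libraries were not equally far from WT: Con A 2 lay nearest to WT in 46.3% of the 4-fold risers and 49.4% of the 4-fold fallers. Con A 3 held skeletal muscle transcripts, described with the cell markers.

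**Figure D1:**
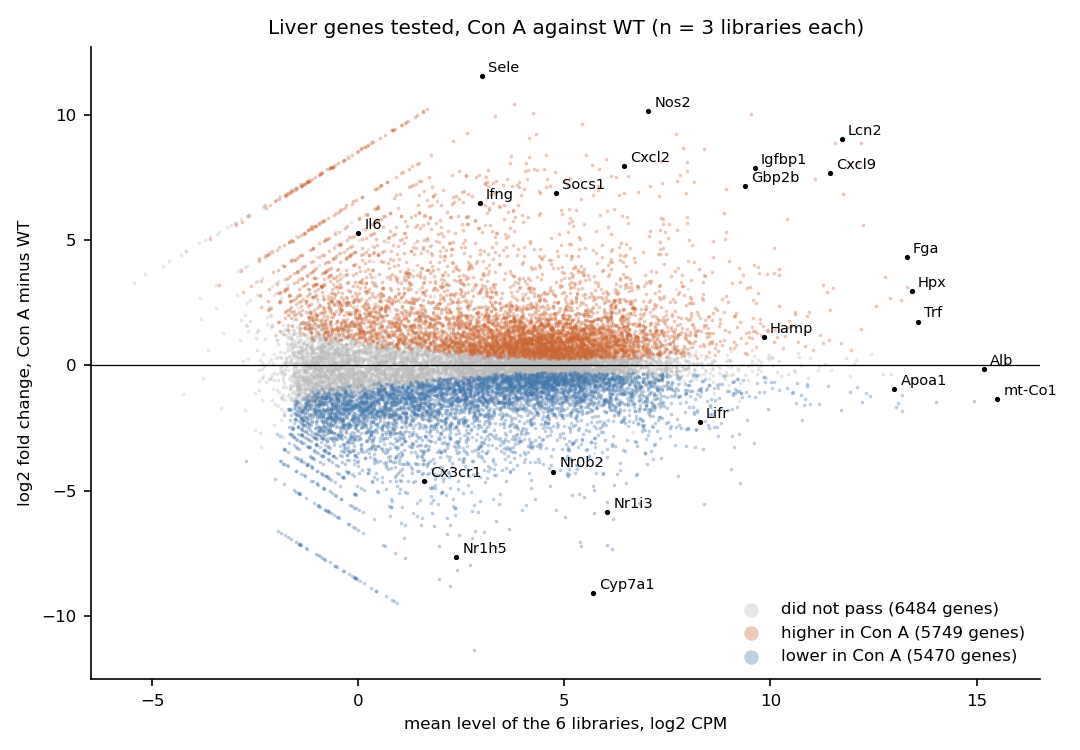
Log2 fold change (Con A minus WT) of each tested gene against its mean level over the 6 libraries in log2 CPM, with genes coloured by whether they passed the edgeR test and in which direction. Genes that passed lie on both sides at every level, 5749 above 0 and 5470 below, and named genes mark both extremes and abundant secreted proteins; 1 gene at 0 in all 6 libraries is not drawn.

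A gene group of which every tested member rose was the interferon-inducible GTPases, which coat and disrupt the vacuoles of intracellular microbes, shown here with the promoter letters that interferon-activated factors are known to bind. The sequences are from RefSeq on GRCm38.p6, on the strand of the gene, and each is a 60-base window that lies upstream of the RefSeq start. The GENCODE gene model, which gives the positions of genes here, starts elsewhere for some genes: inside the window for Gbp2, and upstream of it for Irgm2 and Tgtp1. Capitals mark the GAS element TTCNNNGAA, through which interferon-gamma acts, and the ISRE, the element of interferon-stimulated and interferon regulatory factors, which reads GAAA, any 2 bases, GAAA. Both were searched on either strand, and matches may overlap. Each window shown was laid on a match, and Irf1 and Socs1 are not GTPases. Of 18 protein-coding genes of the GTPase list, 11 had a RefSeq promoter here, and how many of those lack a match was not counted. The windows are Irf1 (chr11:53769904-53769963, plus strand), Igtp (chr11:58199491-58199550, plus strand), Irgm2 (chr11:58214882-58214941, plus strand), Tgtp1 (chr11:48992295-48992354, minus strand), Tgtp2 (chr11:49064254-49064313, minus strand), Gbp2 (chr3:142620584-142620643, plus strand) and Socs1 (chr16:10785574-10785633, minus strand).
Irf1: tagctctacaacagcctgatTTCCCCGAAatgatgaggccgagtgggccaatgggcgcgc
Igtp: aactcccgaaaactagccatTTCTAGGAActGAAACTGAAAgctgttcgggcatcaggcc
Irgm2: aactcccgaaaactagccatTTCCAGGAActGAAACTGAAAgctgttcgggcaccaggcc
Tgtp1: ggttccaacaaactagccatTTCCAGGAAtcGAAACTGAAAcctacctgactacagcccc
Tgtp2: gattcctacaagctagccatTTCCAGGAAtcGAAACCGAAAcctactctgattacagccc
Gbp2: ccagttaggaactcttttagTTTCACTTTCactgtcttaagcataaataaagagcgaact
Socs1: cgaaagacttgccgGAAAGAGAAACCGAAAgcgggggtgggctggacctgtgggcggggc
Among 32851 promoters of the table (250 bases before to 50 after the start), 8.3% held a GAS match and 3.44% an ISRE match. A GAS followed after 2 bases by an ISRE was in 5 of them, or 0.0152%, and this spacing was chosen after the matches had been seen. All 5 lie on chromosome 11 and belong to the GTPase family (Igtp, Irgm2, Tgtp1, Tgtp2 and the gene model Gm12185). They are related copies: the Igtp and Irgm2 windows share 58 of 60 bases, and the Igtp and Tgtp1 windows 38. All 5 genes were tested and all 5 rose, with log2 changes of 3.62 for Igtp, 3.16 for Irgm2, 7.35 for Tgtp1, 4.7 for Tgtp2 and 3.62 for Gm12185. A match is a description of these letters and shows no binding.

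All 19 tested members of the GTPase list rose, and all 19 had groups without overlap, beside 32.5% higher and 69.8% without overlap among all genes. The median log2 change of the list was 4.7. Gbp2 (ENSMUSG00000028270, GRCm38 chr3:142620602-142638008) was at 2.33, 2.86 and 1.76 CPM in WT and 528, 307 and 505 CPM in Con A. Its lowest Con A library was far above its highest WT library (log2 change 7.59 ± 0.30 SE, edgeR adjusted p = 1.28e-07). Gbp2b, a guanylate-binding protein of near-identical sequence, went from 9.36 ± 0.481 CPM in WT to 1327 ± 122 CPM in Con A (log2 change 7.15 ± 0.18 SE, edgeR adjusted p = 2.81e-08), and reads of the 2 genes may have been split between them. Tgtp1 was at 3.48, 2.72 and 1.63 CPM in WT and 449, 401 and 425 CPM in Con A (log2 change 7.35 ± 0.30 SE, edgeR adjusted p = 1.54e-07), and Tgtp2, a near copy, had a log2 change of 4.7. All 3 Con A libraries lay above all WT libraries for these genes. Iigp1 went from 609 ± 105 CPM in WT to 5221 ± 676 CPM in Con A (log2 change 3.1 ± 0.20 SE, edgeR adjusted p = 1.50e-06). Gbp8 had the smallest log2 change of the list, 1.42.

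Transcripts of cytokines listed as T cell products were low in whole liver and mostly higher after injection. Which cells made them was not tested. Of the T cell cytokines, 9 of 11 tested members rose, 0 fell and 2 did not pass (median log2 change 3.04), beside 32.5% of all genes higher. Ifng, which encodes interferon-gamma, was at 0.32, 0.14 and 0.0418 CPM in WT and 12.7, 18.5 and 14.5 CPM in Con A, with no overlap between the groups (log2 change 6.49 ± 0.41 SE, edgeR adjusted p = 1.33e-06; 7.32 without WT 1). Tnf was at 0.641, 0.421 and 0.711 CPM in WT and 11.9, 17.5 and 7.71 CPM in Con A (log2 change 4.37 ± 0.42 SE, edgeR adjusted p = 1.54e-05), and it was highest in Con A 2. Il21, a cytokine of helper T cells, was 69.4 times higher in counts (95% interval 12 to 2784, edgeR adjusted p = 3.43e-05; at least 14.9-fold without WT 3). Xcl1, a chemokine of activated T and NK cells, rose (log2 change 5.09 ± 0.68 SE, edgeR adjusted p = 1.27e-04; 6.8 without WT 3), as did Il10, which restrains macrophages (log2 change 2.87 ± 0.47 SE, edgeR adjusted p = 4.37e-04). Il2, the T cell growth factor, was at 0, 0 and 0.167 CPM in WT and 0.628, 0.631 and 0.332 CPM in Con A (log2 change 3.04 ± 0.80 SE, edgeR adjusted p = 0.00749; 6.61 without WT 3). The members that did not pass were Il4, with means of 0.927 CPM in WT and 0.898 CPM in Con A, and Fasl, the death ligand of cytotoxic cells, with 0.354 CPM in WT and 0.661 CPM in Con A. The other 10 listed cytokines, among them Il17a and Csf2, were under the count filter. Of the genes induced on T cell activation, 13 of 17 tested members rose, 0 fell and 4 did not pass (median log2 change 2.44). Tnfrsf9, the costimulatory receptor 4-1BB, was 357 times higher in counts (95% interval 63.6 to 14130, edgeR adjusted p = 1.63e-06; at least 76.5-fold without WT 3). Ctla4, an inhibitory receptor, rose (log2 change 4.19 ± 0.49 SE, edgeR adjusted p = 5.51e-05), while Lag3, at 2.04 CPM in WT and 1.74 CPM in Con A, did not pass.

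Reception of these signals was also altered. Of the interferon-gamma inducers and receptors, 12 of 15 tested members rose, 2 fell and 1 did not pass (median log2 change 1.58); 1 fell without Con A 2, Con A 3, WT 2 or WT 3. Both chains of the interferon-gamma receptor rose, Ifngr1 from 11.5 ± 1.1 CPM in WT to 34.4 ± 1.56 CPM in Con A (log2 change 1.58 ± 0.12 SE, edgeR adjusted p = 4.29e-06). Ifngr2 went from 8.67 ± 1.28 CPM in WT to 37.1 ± 7.08 CPM in Con A (log2 change 2.1 ± 0.18 SE, edgeR adjusted p = 6.99e-06). The chains of the interleukin-18 receptor, which sensitises lymphocytes to produce interferon-gamma, rose, with log2 changes of 2.09 for Il18r1 and 2.87 for Il18rap, whereas Il18 itself fell (log2 change -0.76 ± 0.25 SE, edgeR adjusted p = 0.0223; not passed without Con A 2, Con A 3, WT 2 or WT 3, at -0.76 to -0.63 and edgeR adjusted p = 0.0541 to 0.0771). Ifnlr1, the lambda interferon receptor, rose from 0.318 ± 0.171 CPM in WT to 2.73 ± 1.1 CPM in Con A. Of the JAK kinases and STAT factors, 7 of 11 tested members rose, 2 fell and 2 did not pass (median log2 change 1.12); 1 fell without Con A 1, Con A 3 or WT 1. Stat3, the factor of interleukin-6, was at 81.8, 71.7 and 69.3 CPM in WT and 550.0, 307 and 523 CPM in Con A (log2 change 2.63 ± 0.22 SE, edgeR adjusted p = 6.98e-06). Jak2 rose with a log2 change of 2.3. Tyk2, a kinase of type I interferon receptors, fell (log2 change -0.47 ± 0.13 SE, edgeR adjusted p = 0.00914).

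Inhibitors of the same pathway rose as well. Of the SOCS proteins and other JAK-STAT inhibitors, 9 of 13 tested members rose, 3 fell and 1 did not pass (median log2 change 0.80); 1 fell without Con A 1, Con A 3, WT 1 or WT 2. Socs1, which shuts down the interferon-gamma receptor and whose promoter window carries 2 overlapping ISRE matches, was at 0.183, 0.796 and 0.418 CPM in WT and 50.5, 66.3 and 47.8 CPM in Con A. All Con A libraries lay above all WT libraries (log2 change 6.87 ± 0.33 SE, edgeR adjusted p = 3.28e-07). Socs3, which restrains interleukin-6 receptors, went from 9.85 ± 4.26 CPM in WT to 228 ± 79.3 CPM in Con A (log2 change 4.53 ± 0.37 SE, edgeR adjusted p = 5.60e-06). Usp18, which blocks the type I interferon receptor, and the phosphatases Ptpn2 and Ptpn1 rose with log2 changes of 3.77, 2.72 and 2.55. Socs4 fell (log2 change -0.59 ± 0.11 SE, edgeR adjusted p = 0.00128). Of the interferon regulatory factors, 6 of 11 tested members rose, 2 fell and 3 did not pass (median log2 change 1.15). Irf1, a transcription factor that interferon-gamma induces directly, was at 30.3, 24.5 and 36.6 CPM in WT and 621, 644 and 349 CPM in Con A, and Con A 3 was the lowest of the injected libraries (log2 change 4.14 ± 0.34 SE, edgeR adjusted p = 6.14e-06). Irf8, a factor of myeloid cells, rose from 9.97 ± 1.8 CPM in WT to 197 ± 14.4 CPM in Con A (log2 change 4.3 ± 0.17 SE, edgeR adjusted p = 1.18e-07). Irf9 did not pass, at 68.1 CPM in WT and 62.3 CPM in Con A, and Irf3 fell, with a log2 change of -0.51.

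**Figure D2:**
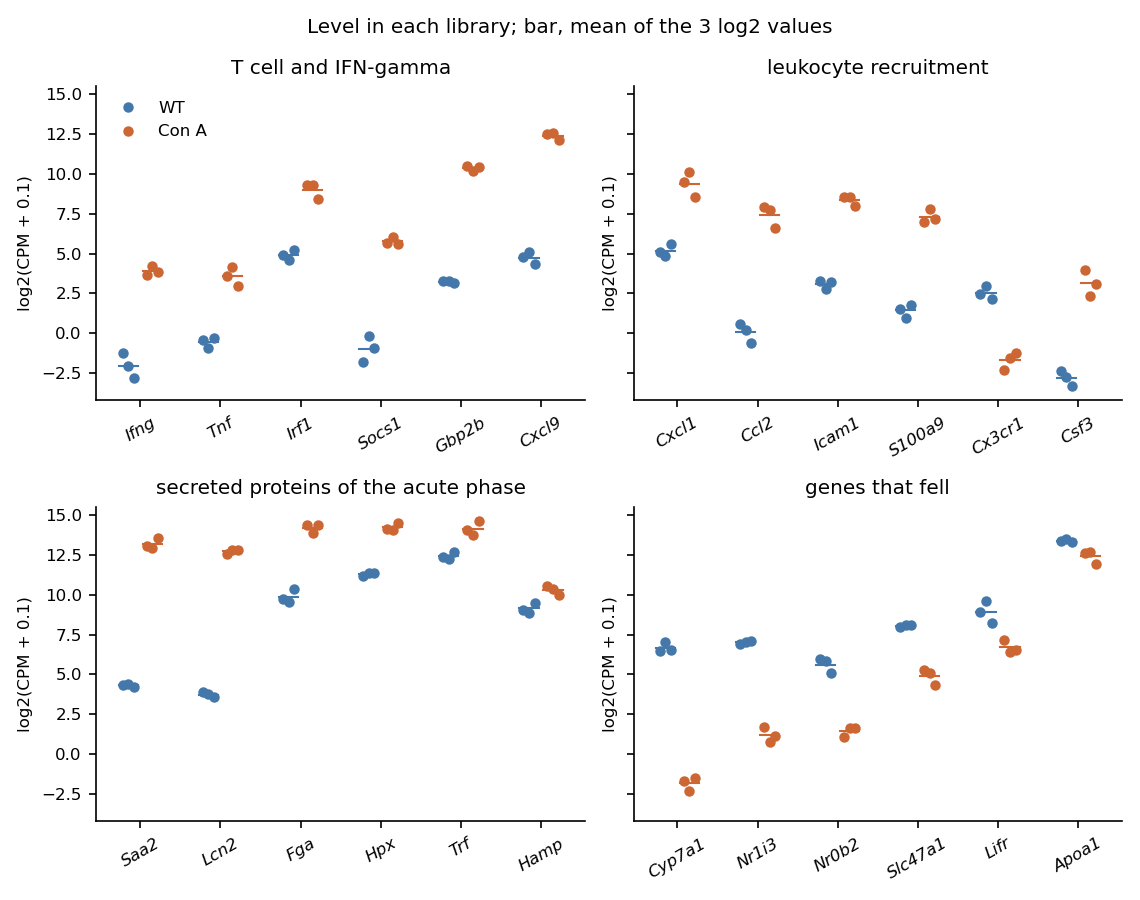
Level of selected genes in each of the 6 libraries as log2(CPM + 0.1), with WT in blue, Con A in orange and a bar at the mean of the 3 values. In each of the 24 genes shown the groups do not overlap: the 17 risers lie higher in all 3 Con A libraries, and the fallers lower.

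The interleukin-6 family is the main inducer of the acute phase in hepatocytes, and its ligands and receptors moved in different directions. Of the family, 7 of 12 tested members rose, 3 fell and 2 did not pass (median log2 change 1.05). Il6 was at 0, 0.0468 and 0.0836 CPM in WT and 2.88, 1.16 and 1.78 CPM in Con A, low in bulk liver but above WT in each Con A library, and was 42.8 times higher in counts (95% interval 14.3 to 210.3, edgeR adjusted p = 7.21e-05; 82.6 times without WT 3). Osm, oncostatin M, rose from 0.061 ± 0.106 CPM in WT to 4.03 ± 1.63 CPM in Con A (log2 change 5.95 ± 0.72 SE, edgeR adjusted p = 6.37e-05; 9.55 without WT 1 and 5.35 without WT 3), and Lif was 136 times higher in counts (95% interval 37.2 to 1127, edgeR adjusted p = 8.05e-06; at least 58.2-fold without WT 3). Among the receptors, Osmr, the oncostatin M receptor, rose from 3.27 ± 0.405 CPM in WT to 40.9 ± 6.15 CPM in Con A (log2 change 3.64 ± 0.21 SE, edgeR adjusted p = 8.19e-07), and the shared chain Il6st (gp130) with a log2 change of 1.38. Lifr, the leukaemia inhibitory factor receptor, fell instead and was at 472, 774 and 305 CPM in WT and 145, 83.8 and 92.8 CPM in Con A (log2 change -2.27 ± 0.44 SE, edgeR adjusted p = 0.00136). Il6ra, the chain specific for interleukin-6, was at 153, 136 and 109 CPM in WT and 131, 126 and 123 CPM in Con A and did not pass (log2 change -0.07 ± 0.19 SE, edgeR adjusted p = 0.772). Il11ra1 fell (log2 change -1.24 ± 0.15 SE, edgeR adjusted p = 6.56e-05) and its ligand Il11 rose (log2 change 4.98 ± 0.49 SE, edgeR adjusted p = 1.62e-05; 5.7 without WT 3).

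Both agonists and antagonists of the interleukin-1 family rose. Of the family, 11 of 15 tested members rose, 1 fell and 3 did not pass (median log2 change 2.67). Il1rn, the receptor antagonist, was at 2.06, 1.12 and 1.88 CPM in WT and 819.8, 490.4 and 702 CPM in Con A (log2 change 8.63 ± 0.32 SE, edgeR adjusted p = 9.82e-08). Il1r2, the decoy receptor, went from 0.107 ± 0.11 CPM in WT to 16.7 ± 1.89 CPM in Con A (log2 change 7.25 ± 0.41 SE, edgeR adjusted p = 7.31e-07; 8.39 without WT 2). The agonists Il1b and Il1a reached 19.6 and 9.9 CPM, and Il1b rose (log2 change 2.9 ± 0.46 SE, edgeR adjusted p = 3.90e-04; 3.82 without WT 3). Il1r1, the signalling receptor, was at 142, 88.4 and 66.2 CPM in WT and 1134, 987 and 790.1 CPM in Con A (log2 change 3.29 ± 0.29 SE, edgeR adjusted p = 8.25e-06), whereas its partner chain Il1rap fell, with a log2 change of -0.86. Il33, an alarmin released by damaged cells, rose from 1.16 ± 0.475 CPM in WT to 34.5 ± 16.8 CPM in Con A (log2 change 4.88 ± 0.48 SE, edgeR adjusted p = 1.67e-05). Sigirr, an inhibitory receptor of the family, did not pass, at 13.5 CPM in WT and 11.8 CPM in Con A. Whether antagonists rose more than agonists was not tested.

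The chemokines Cxcl1, Cxcl2 and Cxcl3, which draw neutrophils, hold a kappaB match close to their starts. The windows are from RefSeq on GRCm38.p6, with the kappaB match (GGGA or GGGG, any base, then TTTCC, either strand) in capitals: Cxcl1 (chr5:90891154-90891213, plus strand), Cxcl2 (chr5:90903782-90903841, plus strand), Cxcl3 (chr5:90786008-90786067, plus strand) and Il6 (chr5:30013050-30013109, plus strand). They are shown because the first 3 carry the same letters and because these genes rose together.
Cxcl1: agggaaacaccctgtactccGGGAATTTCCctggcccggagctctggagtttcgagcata
Cxcl2: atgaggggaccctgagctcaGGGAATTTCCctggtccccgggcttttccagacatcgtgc
Cxcl3: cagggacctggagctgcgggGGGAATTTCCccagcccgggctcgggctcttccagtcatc
Il6: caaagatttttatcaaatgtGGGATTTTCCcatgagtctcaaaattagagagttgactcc
The 10 letters GGGAATTTCC begin 71 bases before the start in Cxcl1, 97 in Cxcl2 and 73 in Cxcl3, and a kappaB match was in 0.807% of the 32851 promoters. Cxcl1, Cxcl2 and Cxcl3 are neighbouring relatives. Cxcl1 was at 34.3, 28.2 and 48.6 CPM in WT and 736, 1111 and 369 CPM in Con A (log2 change 4.32 ± 0.40 SE, edgeR adjusted p = 1.12e-05). Cxcl2 was at 0.916, 0.421 and 0.752 CPM in WT and 175, 260.5 and 87.3 CPM in Con A (log2 change 7.95 ± 0.62 SE, edgeR adjusted p = 4.12e-06). Cxcl3 was at least 36.5-fold higher in counts (edgeR adjusted p = 4.92e-05; at least 23.5-fold without WT 3). Of the CXC chemokines, 13 of 15 tested members rose, 2 fell and 0 did not pass (median log2 change 3.07). Those that draw activated T cells through CXCR3 rose as well, Cxcl10 from 2.33 ± 0.719 CPM in WT to 500.4 ± 224 CPM in Con A and Cxcl11 from 9.93 ± 1.16 CPM in WT to 126 ± 40.7 CPM in Con A, with log2 changes of 7.75 and 3.66. The members that fell were Cxcl12, a constitutive chemokine of stromal cells, from 207 ± 62 CPM in WT to 81 ± 24.1 CPM in Con A (log2 change -1.35 ± 0.28 SE, edgeR adjusted p = 0.00214), and Cxcl17 (log2 change -3.63 ± 0.70 SE, edgeR adjusted p = 0.00132; -5.45 without Con A 2).

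Chemokines that draw monocytes rose as well. Of the CC chemokines, 14 of 16 tested members rose, 1 fell and 1 did not pass (median log2 change 4.6); 0 fell without Con A 3 or WT 3. Ccl2, the main monocyte chemokine, was at 1.42, 1.03 and 0.543 CPM in WT and 246, 217 and 97 CPM in Con A, and Con A 3 was the lowest injected library (log2 change 7.55 ± 0.52 SE, edgeR adjusted p = 2.02e-06). Ccl11, its neighbour on chromosome 11 and a chemokine for eosinophils, rose from 0.182 ± 0.0957 CPM in WT to 40.3 ± 11.8 CPM in Con A (log2 change 7.77 ± 0.35 SE, edgeR adjusted p = 2.28e-07). Ccl25, a gut-homing chemokine, was the member that fell (log2 change -0.58 ± 0.18 SE, edgeR adjusted p = 0.0164; not passed without Con A 3 or WT 3, at -0.51 to -0.50 and edgeR adjusted p = 0.0545 to 0.0584). Receptors split. Of the chemokine receptors, 7 of 16 tested members rose, 6 fell and 3 did not pass (median log2 change -0.02). Ccrl2, which presents chemerin to leukocytes, was at 0.641, 0.375 and 0.251 CPM in WT and 193, 116 and 77.1 CPM in Con A (log2 change 8.25 ± 0.45 SE, edgeR adjusted p = 6.28e-07). Cxcr2, the neutrophil receptor for Cxcl1 and Cxcl2, rose from 0.947 ± 0.168 CPM in WT to 18.2 ± 6.36 CPM in Con A (log2 change 4.25 ± 0.29 SE, edgeR adjusted p = 2.04e-06). Ccr1 rose too, with a log2 change of 4.44. Cx3cr1, a receptor of patrolling monocytes and tissue macrophages, fell from 5.78 ± 1.76 CPM in WT to 0.226 ± 0.114 CPM in Con A (log2 change -4.61 ± 0.42 SE, edgeR adjusted p = 1.10e-05). Ccr2, the receptor for Ccl2, fell (log2 change -0.53 ± 0.17 SE, edgeR adjusted p = 0.022; not passed without Con A 3 or WT 1, at -0.51 to -0.49 and edgeR adjusted p = 0.0611 to 0.0631). Of the colony-stimulating factors and receptors, 8 of 10 tested members rose, 2 fell and 0 did not pass (median log2 change 1.37). Csf3, which mobilises neutrophils, was 212 times higher in counts (95% interval 72.1 to 1030, edgeR adjusted p = 4.57e-05; 429 times without WT 1 and 136 times without WT 3), and its receptor Csf3r rose (log2 change 2.27). Flt3l, the growth factor of dendritic cells, fell from 7.58 ± 1.03 CPM in WT to 0.907 ± 0.535 CPM in Con A (log2 change -3.05 ± 0.38 SE, edgeR adjusted p = 8.51e-05).

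AP-1 factors are among the first genes that stress and cytokine signals induce. Of these, 13 of 14 tested members rose, 1 fell and 0 did not pass (median log2 change 3.59). Atf3, a stress-induced repressor, was at 1.37, 0.702 and 1.3 CPM in WT and 458, 272 and 237 CPM in Con A (log2 change 8.15 ± 0.39 SE, edgeR adjusted p = 3.13e-07). Junb, Jun and Fos rose with log2 changes of 5.64, 4.68 and 6.22. Mafg, a small partner of NRF2, fell from 216 ± 9.1 CPM in WT to 88.4 ± 8.28 CPM in Con A (log2 change -1.29 ± 0.14 SE, edgeR adjusted p = 3.50e-05). Of the KLF and EGR factors, 12 of 17 tested members rose, 2 fell and 3 did not pass (median log2 change 1.87). Klf6 rose from 15.7 ± 1.92 CPM in WT to 339.6 ± 63.9 CPM in Con A (log2 change 4.44 ± 0.19 SE, edgeR adjusted p = 1.95e-07). Egr1 went from 1.89 ± 0.467 CPM in WT to 144 ± 71.7 CPM in Con A (log2 change 6.25 ± 0.42 SE, edgeR adjusted p = 1.68e-06). Klf9 and Klf15, both glucocorticoid targets in liver, fell with log2 changes of -0.69 and -0.92. Of the MAP kinase phosphatases, which end these signals, 9 of 10 tested members rose, 0 fell and 1 did not pass (median log2 change 2.83). Dusp8 was at 0.0916, 0.328 and 0.167 CPM in WT and 47.9, 45.6 and 41.4 CPM in Con A (log2 change 7.82 ± 0.25 SE, edgeR adjusted p = 6.90e-08). Dusp7 did not pass.

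Of the NF-kappaB subunits and their feedback proteins, 22 of 24 tested members rose, 1 fell and 1 did not pass (median log2 change 2.46). Tnfaip3 (A20), the ubiquitin editor that switches the pathway off, was at 2.38, 2.06 and 1.92 CPM in WT and 417, 298 and 271 CPM in Con A (log2 change 7.27 ± 0.30 SE, edgeR adjusted p = 1.67e-07). Relb, Rel, Nfkb2, Rela and Nfkb1, the 5 subunits, rose with log2 changes of 4.38, 2.82, 3.38, 2.44 and 1.92. Ikbke, an inducible kinase of the pathway, rose from 27.6 ± 0.89 CPM in WT to 408 ± 37.7 CPM in Con A (log2 change 3.89 ± 0.15 SE, edgeR adjusted p = 1.11e-07). Chuk, which encodes the constitutive kinase IKK-alpha, fell (log2 change -0.58 ± 0.17 SE, edgeR adjusted p = 0.0113). Many inflammatory messenger RNAs are kept short-lived by proteins that bind them. Of these decay factors, 11 of 15 tested members rose, 3 fell and 1 did not pass (median log2 change 1.01). Zc3h12a (regnase-1), which cuts the Il6 transcript, was at 3.8, 4.21 and 3.3 CPM in WT and 59.2, 51.6 and 61.6 CPM in Con A (log2 change 3.93 ± 0.18 SE, edgeR adjusted p = 2.53e-07). Zfp36, Zfp36l1 and Zfp36l2, which bind AU-rich elements, rose with log2 changes of 2.54, 1.86 and 2.71. Tia1 and Tial1, which hold back translation, fell (log2 changes -1.0 and -0.52).

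Con A injury is known to kill hepatocytes, which was not measured here. Genes of death signalling were mostly higher in whole liver. Of the TNF and death receptor genes, 16 of 21 tested members rose, 1 fell and 4 did not pass (median log2 change 1.37). Tnfrsf1a, the main receptor for tumour necrosis factor, was at 23.6, 26.4 and 26.3 CPM in WT and 156, 125 and 174 CPM in Con A (log2 change 2.58 ± 0.17 SE, edgeR adjusted p = 1.60e-06). Tnfrsf12a, the TWEAK receptor, rose from 4.13 ± 0.692 CPM in WT to 99 ± 10.6 CPM in Con A (log2 change 4.58 ± 0.17 SE, edgeR adjusted p = 9.01e-08), while its ligand Tnfsf12 fell (log2 change -1.16). Mlkl, the executor of necroptosis, went from 6.67 ± 0.793 CPM in WT to 80.9 ± 10.6 CPM in Con A (log2 change 3.6 ± 0.15 SE, edgeR adjusted p = 1.43e-07). Casp8 and Fadd, which assemble on death receptors, did not pass, with means in WT and Con A of 39.4 and 45.9 CPM for Casp8 and 4.1 and 4.41 CPM for Fadd. Of the BCL2 family, 12 of 17 tested members rose, 2 fell and 3 did not pass (median log2 change 1.41). The protective Bcl2l1 (BCL-XL) was at 20.3, 18.7 and 18.6 CPM in WT and 299, 169 and 225 CPM in Con A (log2 change 3.59 ± 0.29 SE, edgeR adjusted p = 5.48e-06). Mcl1 rose with a log2 change of 1.39. Of the death-promoting members Pmaip1 and Bid rose (log2 changes 3.27 and 3.11), and Bik and Bmf fell (log2 changes -3.8 and -2.88). Bcl2 and Bad did not pass, with means in WT and Con A of 3.7 and 5.04 CPM for Bcl2 and 6.29 and 6.45 CPM for Bad.

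**Figure D3:**
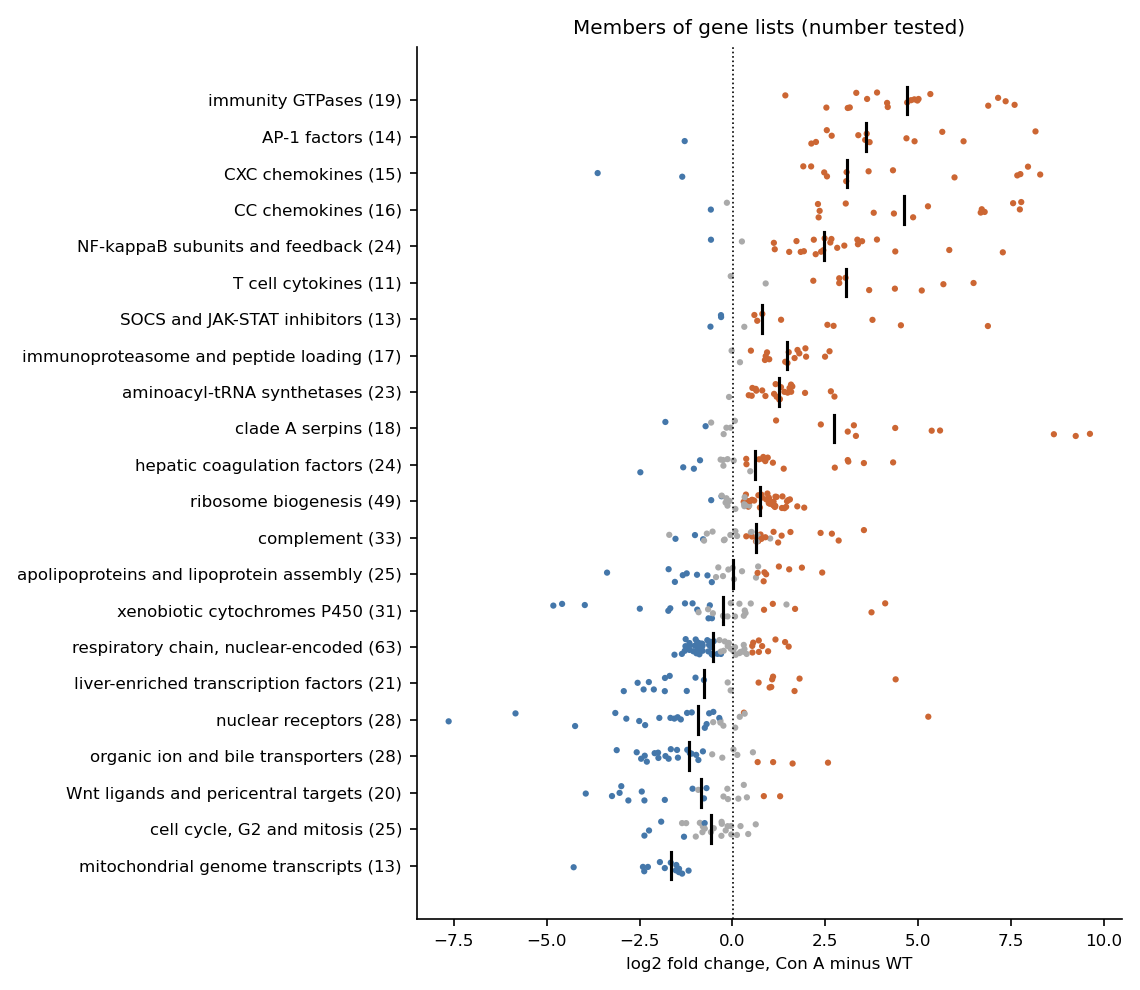
Log2 fold change (Con A minus WT) of the tested members of 22 gene lists, one point per gene, coloured orange where higher, blue where lower and grey where not passed, with a bar at each list's median and a dotted line at the median of all tested genes. The GTPase list lies wholly to the right of 0, and the 13 listed mitochondrial transcripts wholly to the left.

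The largest gains in CPM were in secreted acute phase proteins. A set of 25 acute phase proteins took 1.81, 1.81 and 2.05% of all counts in WT and 15.1, 14.2 and 18.9% in Con A. Transcripts of the mitochondrial genome took 21.6, 22.4 and 19.6% in WT and 5.86, 9.96 and 5.03% in Con A. The shares were set side by side without a test, since 3 against 3 libraries cannot go below an exact two-sided permutation p of 0.1. All 3 Con A libraries lay outside the WT range in both sets. Shares are of 1 whole, so a gain in one class lowers the others. Fga, a fibrinogen chain, had the largest gain in CPM, at 850.0, 754 and 1288 CPM in WT and 21081, 15171 and 21596 CPM in Con A (log2 change 4.32 ± 0.31 SE, edgeR adjusted p = 2.76e-06). Hpx, the haem carrier haemopexin, came next, at 2319.8, 2580.4 and 2658 CPM in WT and 18110.5, 16994 and 23529.8 CPM in Con A (log2 change 2.96 ± 0.23 SE, edgeR adjusted p = 4.14e-06). Apoa1, the main protein of high-density lipoprotein, had the largest loss in CPM among nuclear genes, going from 10840.3 ± 739 CPM in WT to 5594 ± 1518 CPM in Con A (log2 change -0.95 ± 0.32 SE, edgeR adjusted p = 0.0238; not passed without Con A 3, WT 1 or WT 2, at -0.98 to -0.74 and edgeR adjusted p = 0.0512 to 0.0819). Car3, a carbonic anhydrase, was next among nuclear genes, going from 6986 ± 760.3 CPM in WT to 2537 ± 1605 CPM in Con A (log2 change -1.46 ± 0.47 SE, edgeR adjusted p = 0.0213). Apoa2 went from 7697 ± 309 CPM in WT to 3278 ± 894 CPM in Con A (log2 change -1.23 ± 0.25 SE, edgeR adjusted p = 0.00191). Alb, albumin, the nuclear gene with the most counts in both groups, was at 38169, 33277 and 44968 CPM in WT and 38042, 33818 and 34393 CPM in Con A and did not pass (log2 change -0.13 ± 0.21 SE, edgeR adjusted p = 0.593).

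**Figure D4:**
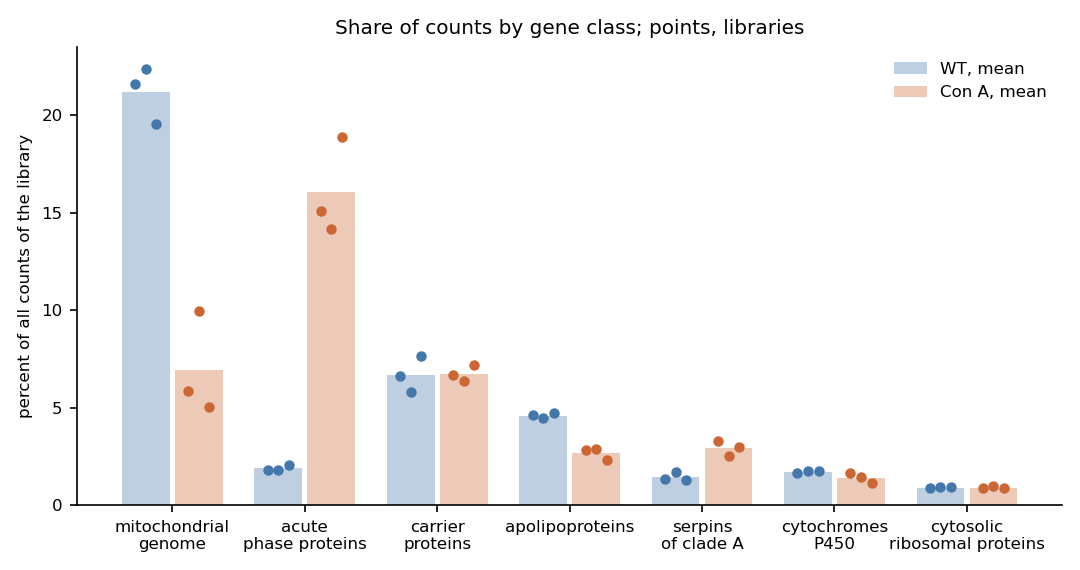
Share of all counts of a library, in percent, taken by 7 classes of genes, with bars at the group mean, points for the 3 WT (blue) and 3 Con A (orange) libraries, and the axis starting at 0. Acute phase proteins rise from about 1.81% to 14.2% or more, and mitochondrial transcripts fall from 19.6% or more to 9.96% or less.

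Secreted proteins of the hepatocyte did not move as a block. Of the carrier proteins, several of which are called negative acute phase proteins, 5 of 16 tested members rose, 4 fell and 7 did not pass (median log2 change -0.15). At 31.25% higher and 25% lower they lie near the 32.5% and 30.9% of all genes. Trf, transferrin, went from 5602 ± 975 CPM in WT to 18783 ± 5992 CPM in Con A (log2 change 1.75 ± 0.26 SE, edgeR adjusted p = 2.84e-04). Ttr and Rbp4, which carry thyroxine and retinol, fell with log2 changes of -0.84 and -1.18. Igfals, which stabilises circulating IGF1, fell from 94.8 ± 17.7 CPM in WT to 11.3 ± 5.23 CPM in Con A (log2 change -3.07 ± 0.33 SE, edgeR adjusted p = 2.82e-05). Of the complement genes, 16 of 33 tested members rose, 3 fell and 14 did not pass (median log2 change 0.63). C3, the central component, was at 2004, 1941 and 2237 CPM in WT and 11386, 9303 and 18768 CPM in Con A (log2 change 2.67 ± 0.27 SE, edgeR adjusted p = 2.21e-05). Cfb, of the alternative pathway, rose (log2 change 3.54), while Masp2, of the lectin pathway, and Cd59a, an inhibitor of lysis, fell (log2 changes -1.01 and -1.53). Of the clade A serpins, 11 of 18 tested members rose, 2 fell and 5 did not pass (median log2 change 2.74); 1 fell without Con A 1, Con A 3, WT 2 or WT 3. Serpina3i went from 0.103 ± 0.0492 CPM in WT to 86.1 ± 23.4 CPM in Con A (log2 change 9.62 ± 0.36 SE, edgeR adjusted p = 9.82e-08). Serpina3n, the mouse antichymotrypsin most studied in inflammation, went from 198 ± 10.5 CPM in WT to 9526 ± 3015 CPM in Con A (log2 change 5.58 ± 0.35 SE, edgeR adjusted p = 1.16e-06). The Serpina3 genes are near copies, so reads may have been split among them. The antitrypsins Serpina1a and Serpina1b did not pass, with means in WT and Con A of 1612 and 1439.5 CPM for Serpina1a and 4099.5 and 4285 CPM for Serpina1b.

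Clotting genes made in hepatocytes and those made in endothelium and other cells were listed apart. Of the hepatic coagulation factors, 14 of 24 tested members rose, 4 fell and 6 did not pass (median log2 change 0.60). The fibrinogen genes Fga, Fgb and Fgg rose with log2 changes of 4.32, 3.12 and 3.54, and Cpb2, which slows fibrinolysis, rose with a log2 change of 2.75. Proc, the anticoagulant protein C, fell from 683 ± 37.5 CPM in WT to 332 ± 46.7 CPM in Con A (log2 change -1.04 ± 0.16 SE, edgeR adjusted p = 2.87e-04). Klkb1, prekallikrein, went from 386 ± 18 CPM in WT to 69.2 ± 25.3 CPM in Con A (log2 change -2.48 ± 0.33 SE, edgeR adjusted p = 1.24e-04). Serpinc1, antithrombin, did not pass at 1235 CPM in WT and 1042 CPM in Con A. Of the tissue factor and fibrinolysis genes, 10 of 15 tested members rose, 0 fell and 5 did not pass (median log2 change 2.51); 1 fell without Con A 1 or WT 2. F3, tissue factor, rose from 5.73 ± 0.532 CPM in WT to 25.4 ± 16.2 CPM in Con A (log2 change 2.14 ± 0.39 SE, edgeR adjusted p = 9.50e-04; 1.51 without Con A 1), and its inhibitor Tfpi did not pass. Procr and Thbd, which on endothelium turn thrombin towards protein C, rose with log2 changes of 5.92 and 3.44.

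The acute phase withdraws iron and zinc from the blood. Of the iron and metallothionein genes, 18 of 28 tested members rose, 5 fell and 5 did not pass (median log2 change 1.11). Mt1, a metallothionein that binds zinc, was at 25, 31.9 and 18.4 CPM in WT and 4356, 5231 and 3306 CPM in Con A (log2 change 7.42 ± 0.33 SE, edgeR adjusted p = 2.06e-07). Steap4, a metal reductase, went from 60.9 ± 6.14 CPM in WT to 6893 ± 1606 CPM in Con A (log2 change 6.82 ± 0.31 SE, edgeR adjusted p = 2.27e-07). Slc39a14, the zinc and iron importer ZIP14, rose with a log2 change of 2.47. Hmox1, haem oxygenase, went from 8.26 ± 1.55 CPM in WT to 494 ± 108 CPM in Con A (log2 change 5.9 ± 0.25 SE, edgeR adjusted p = 1.76e-07). Hamp, hepcidin, which blocks iron export, was at 536, 469 and 711 CPM in WT and 1489, 1284 and 997 CPM in Con A (log2 change 1.13 ± 0.21 SE, edgeR adjusted p = 8.77e-04), and its paralogue Hamp2 fell (log2 change -3.0). Slc40a1, ferroportin, the exporter that hepcidin blocks, fell from 100.1 ± 11.8 CPM in WT to 34.8 ± 12.1 CPM in Con A (log2 change -1.52 ± 0.22 SE, edgeR adjusted p = 1.84e-04). Hfe2 (hemojuvelin), a BMP co-receptor needed for hepcidin in the unstimulated liver, fell from 102 ± 17.1 CPM in WT to 3.21 ± 2.77 CPM in Con A (log2 change -4.97 ± 0.70 SE, edgeR adjusted p = 1.75e-04; -5.94 without Con A 3). Tfr2 did not pass (286 CPM in WT and 306 CPM in Con A).

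The transcription factors that define the hepatocyte were divided. Of the liver-enriched factors, 8 of 21 tested members rose, 11 fell and 2 did not pass (median log2 change -0.77). Cebpd, which cooperates with STAT3 at acute phase genes, was at 2.52, 4.78 and 1.76 CPM in WT and 66.5, 58.7 and 64 CPM in Con A (log2 change 4.39 ± 0.30 SE, edgeR adjusted p = 1.84e-06). Hnf4a, the central hepatocyte factor, rose from 393 ± 52.3 CPM in WT to 639 ± 129.7 CPM in Con A (log2 change 0.70 ± 0.20 SE, edgeR adjusted p = 0.0107; not passed without WT 3, at 0.59 and edgeR adjusted p = 0.0545). The forkhead factors parted: Foxa2 was at 31.8, 37.5 and 49.9 CPM in WT and 3.88, 6.31 and 5.47 CPM in Con A (log2 change -2.93 ± 0.21 SE, edgeR adjusted p = 2.90e-06). Foxa1 fell too (log2 change -2.39), while Foxa3 rose (log2 change 1.67). Onecut1, Nfib and Nfia fell with log2 changes of -2.25, -2.12 and -1.82, and Cebpa and Prox1 did not pass. Nuclear receptors mostly fell, beside 30.9% of all genes lower. Of these, 2 of 28 tested members rose, 19 fell and 7 did not pass (median log2 change -0.92); 1 rose without Con A 1, Con A 2, WT 1, WT 2 or WT 3. Nr0b2 (SHP), the target of the bile acid receptor, was at 61.9, 56.1 and 33.1 CPM in WT and 1.99, 2.96 and 3.03 CPM in Con A (log2 change -4.23 ± 0.30 SE, edgeR adjusted p = 2.57e-06). Nr1h4, the bile acid receptor FXR itself, fell from 188 ± 7.42 CPM in WT to 63.6 ± 31 CPM in Con A (log2 change -1.56 ± 0.33 SE, edgeR adjusted p = 0.00216). Ppara, the fatty acid receptor, went from 145 ± 17.2 CPM in WT to 55.3 ± 10.7 CPM in Con A (log2 change -1.39 ± 0.20 SE, edgeR adjusted p = 2.09e-04). The 2 receptors that rose were Vdr, the vitamin D receptor, from 0.106 ± 0.107 CPM in WT to 4.24 ± 0.768 CPM in Con A (log2 change 5.27 ± 0.55 SE, edgeR adjusted p = 2.57e-05; 6.4 without WT 1), and Nr1h2, a liver X receptor (log2 change 0.31 ± 0.11 SE, edgeR adjusted p = 0.0365; not passed without Con A 1, Con A 2, WT 1, WT 2 or WT 3, at 0.23 to 0.35 and edgeR adjusted p = 0.0509 to 0.162). Rxra, the shared partner of many of these receptors, did not pass, at 229 CPM in WT and 263 CPM in Con A.

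Detoxification genes fell more often than they rose. Of the xenobiotic cytochromes P450, 5 of 31 tested members rose, 12 fell and 14 did not pass (median log2 change -0.25); 3 rose without WT 1 and 7 fell without Con A 3. These are 16.1% higher and 38.7% lower, beside 32.5% and 30.9% of all genes. Without Con A 3 the median log2 change of this list was 0.04, so its lean towards falls depends on that library. Cyp2u1 fell from 48.9 ± 5.92 CPM in WT to 1.71 ± 0.592 CPM in Con A (log2 change -4.82 ± 0.31 SE, edgeR adjusted p = 1.39e-06). Cyp1a2, a pericentral enzyme, went from 913 ± 119.6 CPM in WT to 434 ± 189 CPM in Con A (log2 change -1.07 ± 0.31 SE, edgeR adjusted p = 0.0124). Nr1i3 (CAR), a xenobiotic receptor, was at 122, 129 and 138 CPM in WT and 3.19, 1.55 and 2.07 CPM in Con A (log2 change -5.84 ± 0.24 SE, edgeR adjusted p = 1.57e-07), with all Con A libraries below all WT libraries. Cyp2b10, a classic target of that receptor, rose from 4.31 ± 3.11 CPM in WT to 57.3 ± 7.76 CPM in Con A (log2 change 3.74 ± 0.53 SE, edgeR adjusted p = 1.75e-04). Cyp2e1, a pericentral enzyme that oxidises ethanol and paracetamol, did not pass, at 3270.5 CPM in WT and 4038 CPM in Con A. Of the conjugation enzymes, 5 of 38 tested members rose, 18 fell and 15 did not pass (median log2 change -0.66); 3 rose without Con A 1, WT 1 or WT 2. Ugt1a6a fell from 46.6 ± 2.83 CPM in WT to 2.7 ± 1.69 CPM in Con A (log2 change -4.1 ± 0.38 SE, edgeR adjusted p = 1.14e-05; -4.69 without Con A 2). Ugt1a1, which shares its last exons and conjugates bilirubin, rose from 10.1 ± 3.08 CPM in WT to 35.7 ± 14.7 CPM in Con A (log2 change 1.81 ± 0.29 SE, edgeR adjusted p = 4.16e-04), so the counting of shared exons bears on both. Of the organic ion and bile transporters, 4 of 28 tested members rose, 19 fell and 5 did not pass (median log2 change -1.18). Slc47a1, the cation exporter MATE1, was at 249, 271 and 273 CPM in WT and 37.8, 34.1 and 19.7 CPM in Con A (log2 change -3.12 ± 0.22 SE, edgeR adjusted p = 2.63e-06). Abcc2, the canalicular exporter of bilirubin conjugates, fell from 267 ± 2.35 CPM in WT to 62.6 ± 13.6 CPM in Con A (log2 change -2.09 ± 0.29 SE, edgeR adjusted p = 1.48e-04). Slc10a1, the bile acid importer, went from 239.7 ± 43.3 CPM in WT to 103 ± 22.7 CPM in Con A (log2 change -1.22 ± 0.22 SE, edgeR adjusted p = 8.49e-04). Abcb11, the bile salt pump, was lower (log2 change -0.98 ± 0.31 SE, edgeR adjusted p = 0.0191; not passed without Con A 2 or Con A 3, at -0.88 to -0.83 and edgeR adjusted p = 0.0619 to 0.0645). Abcb1b, a multidrug exporter, and Abcc4, which can export bile acids to the blood, rose (log2 changes 2.57 and 1.62). Of the apolipoprotein genes, 8 of 25 tested members rose, 8 fell and 9 did not pass (median log2 change 0.01). At 32% higher and 32% lower they lie near the 32.5% and 30.9% of all genes, so the counts do not set this list apart. Apoc3, Apoc1 and Apoc4 fell with log2 changes of -1.34, -1.55 and -1.72, and Apob rose (log2 change 0.91).

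Arginine is the substrate of nitric oxide synthase and of arginase, which feeds polyamine synthesis. Of the list, 14 of 24 tested members rose, 2 fell and 8 did not pass (median log2 change 0.94). Nos2, which makes nitric oxide from arginine, was at 0.229, 0.234 and 0.209 CPM in WT and 320.4, 192 and 271 CPM in Con A, with no overlap between the groups. Odc1, the first enzyme of polyamine synthesis, was at 6.04, 6.37 and 6.23 CPM in WT and 151, 51.4 and 112 CPM in Con A (log2 change 4.08 ± 0.34 SE, edgeR adjusted p = 6.39e-06). Smox, a spermine oxidase, went from 1.46 ± 0.464 CPM in WT to 49.7 ± 12.4 CPM in Con A (log2 change 5.08 ± 0.32 SE, edgeR adjusted p = 1.28e-06). Slc7a1, an arginine importer, rose from 0.636 ± 0.119 CPM in WT to 9.58 ± 1.82 CPM in Con A (log2 change 3.9 ± 0.23 SE, edgeR adjusted p = 8.39e-07). Arg1, Ass1 and Asl of the urea cycle did not pass, with means in WT and Con A of 869 and 851 CPM for Arg1, 709 and 794 CPM for Ass1 and 371 and 322 CPM for Asl. Cps1 rose (log2 change 1.4) and Otc fell (log2 change -0.77). In the tryptophan and NAD list, 6 of 17 tested members rose, 7 fell and 4 did not pass (median log2 change -0.36). Nampt, which salvages nicotinamide, went from 80.5 ± 7.31 CPM in WT to 582 ± 88.4 CPM in Con A (log2 change 2.85 ± 0.22 SE, edgeR adjusted p = 4.27e-06). Nnmt, which methylates it, went from 5.67 ± 1.63 CPM in WT to 135 ± 54.5 CPM in Con A (log2 change 4.57 ± 0.37 SE, edgeR adjusted p = 5.24e-06). Tdo2, the hepatic tryptophan dioxygenase, rose (log2 change 1.37) and Ido1, the interferon-induced one, was at 0, 0 and 0 CPM in WT and 0.419, 0.631 and 1.49 CPM in Con A, or at least 20-fold higher in counts (edgeR adjusted p = 0.00405; at least 12.9-fold without WT 3 and at least 11.8-fold without Con A 3), while the later enzymes Haao and Afmid fell (log2 changes -1.15 and -3.32).

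Mitochondrial energy genes fell in part. All 13 listed transcripts of the mitochondrial genome fell, with no overlap between groups and a median log2 change of -1.66. Counted by biotype, 13 of 14 tested mitochondrial tRNA genes fell and 0 rose, and 2 of 2 mitochondrial ribosomal RNA genes fell. mt-Co1, a subunit of cytochrome oxidase, was at 63626, 72318 and 64148 CPM in WT and 24614, 33759 and 19866 CPM in Con A (log2 change -1.35 ± 0.27 SE, edgeR adjusted p = 0.00173), and Con A 2 was the injected library nearest to WT. With mitochondrial transcripts left out before normalisation the count of genes that passed was 11262. Of the nuclear-encoded respiratory chain genes, 10 of 63 tested members rose, 35 fell and 18 did not pass (median log2 change -0.53); 6 rose without WT 1. Ndufa5 and Ndufa6 of complex I fell with log2 changes of -1.56 and -1.36, and Atp5b and Sdha rose (log2 changes 1.42 and 1.51). Of the fatty acid oxidation and ketogenesis genes, 6 of 28 tested members rose, 8 fell and 14 did not pass (median log2 change -0.20); 5 fell without WT 3. Shares of this list were 21.4% higher and 28.6% lower, beside 32.5% and 30.9% of all genes, so it did not fall more often than genes at large. Acaa1b, a peroxisomal thiolase, was at 1248, 787 and 2134 CPM in WT and 237, 172 and 78.4 CPM in Con A (log2 change -3.1 ± 0.45 SE, edgeR adjusted p = 2.24e-04). Pdk4, which keeps pyruvate out of the citric acid cycle, was at 4.3, 2.57 and 5.77 CPM in WT and 78.1, 22.7 and 248 CPM in Con A (log2 change 4.78 ± 0.96 SE, edgeR adjusted p = 0.00168; 3.58 without Con A 3), and Con A 3 was its highest library. Acadm and Acadl, dehydrogenases of mitochondrial oxidation, did not pass, with means in WT and Con A of 186 and 205 CPM for Acadm and 131 and 143 CPM for Acadl.

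Genes of protein synthesis and turnover were followed in 6 lists. Of the aminoacyl-tRNA synthetases and their cofactors, 22 of 23 tested members rose, 0 fell and 1 did not pass (median log2 change 1.26), and Aimp1 was the member that did not pass. Wars, which interferon-gamma induces, was at 17.7, 17.2 and 16 CPM in WT and 92.9, 121 and 105 CPM in Con A (log2 change 2.65 ± 0.14 SE, edgeR adjusted p = 5.71e-07). Kars went from 14.6 ± 1.61 CPM in WT to 97.9 ± 28.6 CPM in Con A (log2 change 2.74 ± 0.21 SE, edgeR adjusted p = 3.86e-06). Of the ribosome biogenesis genes, 36 of 49 tested members rose, 2 fell and 11 did not pass (median log2 change 0.74); 1 fell without Con A 1, Con A 3 or WT 2. Rrp12 and Heatr1 rose with log2 changes of 1.93 and 1.74. Of the cytosolic ribosomal proteins, 26 of 74 tested members rose, 13 fell and 35 did not pass (median log2 change 0.06); 17 rose without WT 1 and 8 fell without Con A 3, and the class took 0.857 to 0.906% of counts in WT and 0.858 to 0.972% in Con A. Of the amino acid transporters, 17 of 25 tested members rose, 3 fell and 5 did not pass (median log2 change 1.16). Slc7a5, the large neutral amino acid carrier, was at 1.01, 0.515 and 0.961 CPM in WT and 20.5, 17.4 and 19.7 CPM in Con A (log2 change 4.52 ± 0.23 SE, edgeR adjusted p = 4.37e-07). Of the integrated stress response genes, 15 of 20 tested members rose, 3 fell and 2 did not pass (median log2 change 2.0). Gdf15, a stress hormone, went from 1.82 ± 0.583 CPM in WT to 218 ± 89 CPM in Con A (log2 change 6.9 ± 0.43 SE, edgeR adjusted p = 1.15e-06). Ddit4, an inhibitor of mTORC1, went from 6.43 ± 2.96 CPM in WT to 264 ± 30.7 CPM in Con A (log2 change 5.36 ± 0.38 SE, edgeR adjusted p = 2.28e-06). Fgf21, a hepatokine of fasting, and Atf5 fell (log2 changes -1.98 and -0.70). Of the standard proteasome, 19 of 31 tested members rose, 2 fell and 10 did not pass (median log2 change 0.55); 1 fell without Con A 2, WT 1 or WT 3 and 0 fell without Con A 3 or WT 2. Of the immunoproteasome and peptide loading genes, 15 of 17 tested members rose, 0 fell and 2 did not pass (median log2 change 1.48). Tap1, the peptide transporter, was at 43.6, 37.5 and 33.5 CPM in WT and 242, 234 and 224 CPM in Con A (log2 change 2.61 ± 0.16 SE, edgeR adjusted p = 1.10e-06), and the members that did not pass were B2m (2354 CPM in WT and 2315 CPM in Con A) and Pdia3 (462 CPM in WT and 532 CPM in Con A).

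Genes of the cytoskeleton mostly rose, and those of growth signals moved in both directions. Of the actin and tubulin cytoskeleton genes, 27 of 31 tested members rose, 0 fell and 4 did not pass (median log2 change 1.5). Actg1, cytoplasmic gamma-actin, was at 13.7, 12.1 and 15.5 CPM in WT and 1337, 586 and 858 CPM in Con A (log2 change 6.08 ± 0.33 SE, edgeR adjusted p = 5.47e-07). Actb rose with a log2 change of 2.03. Of the EGF receptor ligands and receptors, 9 of 17 tested members rose, 2 fell and 6 did not pass (median log2 change 1.12). Hbegf went from 0.512 ± 0.203 CPM in WT to 19.7 ± 3.28 CPM in Con A (log2 change 5.26 ± 0.34 SE, edgeR adjusted p = 1.46e-06), Areg was 179 times higher in counts (95% interval 31.7 to 7105, edgeR adjusted p = 7.35e-06; at least 40.6-fold without WT 2 and 115 times without WT 3), and Egfr, the receptor they share, rose from 531 ± 185 CPM in WT to 1410.1 ± 263 CPM in Con A (log2 change 1.41 ± 0.27 SE, edgeR adjusted p = 0.0012). Met, the receptor of hepatocyte growth factor, and Hgf did not pass, with means in WT and Con A of 54.7 and 49.3 CPM for Met and 4.93 and 5.15 CPM for Hgf. In the activin, TGF-beta and BMP list, 6 of 25 tested members rose, 8 fell and 11 did not pass (median log2 change -0.11). Its shares were 24% higher and 32% lower, beside 32.5% and 30.9% of all genes. Inhbb was at 0.458, 0.655 and 0.0836 CPM in WT and 33.5, 21.2 and 13.6 CPM in Con A (log2 change 5.84 ± 0.54 SE, edgeR adjusted p = 1.20e-05). Inhba and Inhbc, further activin subunits, fell (log2 changes -3.14 and -2.27). Fst, which binds activins, went from 2.1 ± 0.7 CPM in WT to 58.6 ± 20.7 CPM in Con A (log2 change 4.79 ± 0.31 SE, edgeR adjusted p = 1.55e-06). Of the Wnt ligands and pericentral targets, 2 of 20 tested members rose, 11 fell and 7 did not pass (median log2 change -0.84); 1 rose without Con A 1 or WT 2. Notum was at 34.4, 30 and 32.8 CPM in WT and 4.35, 3.35 and 2.61 CPM in Con A (log2 change -3.24 ± 0.19 SE, edgeR adjusted p = 7.65e-07). Axin2 and Rnf43 fell, with log2 changes of -2.8 and -2.37. Glul, glutamine synthetase of the same zone, rose (log2 change 1.28 ± 0.21 SE, edgeR adjusted p = 4.92e-04).

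Genes of the circadian clock and of the growth hormone axis moved in both directions. The clock runs on activators (CLOCK and its partners) and on repressors of the PER, CRY and REV-ERB families, which act on output factors of the PAR bZIP family. Of the clock and output genes, 9 of 19 tested members rose, 7 fell and 3 did not pass (median log2 change 0.08). Hlf, a PAR bZIP output factor, was at 57.8, 61.3 and 64.4 CPM in WT and 5.39, 7.08 and 6.71 CPM in Con A (log2 change -3.26 ± 0.15 SE, edgeR adjusted p = 2.42e-07), with all Con A libraries under all WT libraries. Tef, of the same family, fell from 234 ± 9.99 CPM in WT to 84.9 ± 12.5 CPM in Con A (log2 change -1.47 ± 0.14 SE, edgeR adjusted p = 1.31e-05). Per3 fell from 89 ± 8.43 CPM in WT to 10.6 ± 4.62 CPM in Con A (log2 change -3.06 ± 0.30 SE, edgeR adjusted p = 1.59e-05). Per2 went from 193 ± 16.2 CPM in WT to 41.3 ± 22.9 CPM in Con A (log2 change -2.22 ± 0.38 SE, edgeR adjusted p = 5.69e-04). Per1 rose (log2 change 1.93). Nr1d1 (REV-ERB-alpha), a repressor, was at 7.97, 8.19 and 15.3 CPM in WT and 162, 118 and 87.3 CPM in Con A (log2 change 3.54 ± 0.30 SE, edgeR adjusted p = 6.96e-06). Bhlhe41, another repressor, went from 1.09 ± 0.399 CPM in WT to 16.1 ± 2.56 CPM in Con A (log2 change 3.87 ± 0.27 SE, edgeR adjusted p = 2.08e-06). Rora, an activator, and Arntl, the partner of CLOCK, did not pass, with means in WT and Con A of 122 and 128 CPM for Rora and 6.08 and 6.43 CPM for Arntl. The labels used here give no hour of collection for either group, so a difference in that hour and the injection cannot be told apart. Growth hormone acts on hepatocytes through STAT5B and sustains secretion of IGF1. Of the growth hormone and IGF genes, 6 of 22 tested members rose, 8 fell and 8 did not pass (median log2 change -0.50); 5 fell without Con A 3. These are 27.3% higher and 36.4% lower, near the 32.5% and 30.9% of all genes, so the counts do not set this list apart. Igfbp1, which binds IGF1 and is induced by stress and fasting, was at 9.66, 7.72 and 2.88 CPM in WT and 2286, 867 and 1540.1 CPM in Con A (log2 change 7.86 ± 0.56 SE, edgeR adjusted p = 2.43e-06). Ghr, the growth hormone receptor, fell from 552 ± 20.2 CPM in WT to 293 ± 76.5 CPM in Con A (log2 change -0.92 ± 0.21 SE, edgeR adjusted p = 0.00379). Igf1 went from 1017 ± 48.7 CPM in WT to 629 ± 127 CPM in Con A (log2 change -0.69 ± 0.22 SE, edgeR adjusted p = 0.0185; not passed without Con A 3, at -0.53 and edgeR adjusted p = 0.0673). Cish and Socs2, feedback inhibitors of the growth hormone receptor, rose, Cish (log2 change 0.80 ± 0.28 SE, edgeR adjusted p = 0.0273; not passed without Con A 1, WT 1 or WT 2, at 0.56 to 0.65 and edgeR adjusted p = 0.105 to 0.111) and Socs2 (log2 change 1.31 ± 0.38 SE, edgeR adjusted p = 0.0129; not passed without WT 3, at 1.03 and edgeR adjusted p = 0.051). Stat5b did not pass, at 41.5 CPM in WT and 43.8 CPM in Con A.

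Genes of cell division and their inhibitors were listed apart. Of the G2 and mitosis genes, 0 of 25 tested members rose, 5 fell and 20 did not pass (median log2 change -0.58); 8 fell without WT 3. Of the G1 and S phase genes, 12 of 33 tested members rose, 10 fell and 11 did not pass (median log2 change 0.37). Those shares, 36.4% higher and 30.3% lower, are near the 32.5% and 30.9% of all genes, so the counts do not set this list apart. Ccnd1, cyclin D1, rose from 3.94 ± 1.7 CPM in WT to 10.6 ± 5.78 CPM in Con A (log2 change 1.42 ± 0.40 SE, edgeR adjusted p = 0.0104). Tk1, thymidine kinase, went from 73.1 ± 5.85 CPM in WT to 4.65 ± 1.94 CPM in Con A (log2 change -3.98 ± 0.28 SE, edgeR adjusted p = 2.08e-06). Mki67 did not pass, at 9.32 CPM in WT and 8.2 CPM in Con A. Of the inhibitors, 14 of 21 tested members rose, 3 fell and 4 did not pass (median log2 change 1.41). Cdkn1a (p21) was at 3.48, 1.36 and 0.752 CPM in WT and 355, 194 and 249 CPM in Con A (log2 change 7.16 ± 0.55 SE, edgeR adjusted p = 3.92e-06; 7.96 without WT 1). Btg2 went from 3.52 ± 0.662 CPM in WT to 558 ± 250.2 CPM in Con A (log2 change 7.3 ± 0.36 SE, edgeR adjusted p = 3.70e-07). Cdkn2c and Cdkn1c, inhibitors of other kinases of the cycle, fell (log2 changes -2.03 and -1.38).

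Genes of proteases, adhesion molecules and lipid mediators were mostly higher. Of the matrix metalloproteinases and inhibitors, 13 of 22 tested members rose, 5 fell and 4 did not pass (median log2 change 1.9). Timp1, a broad inhibitor, was at 0.183, 0.234 and 0.167 CPM in WT and 23.1, 11.5 and 35.9 CPM in Con A (log2 change 6.88 ± 0.49 SE, edgeR adjusted p = 2.29e-06). Mmp13, a collagenase, went from 1.16 ± 0.152 CPM in WT to 69.1 ± 16.4 CPM in Con A (log2 change 5.89 ± 0.21 SE, edgeR adjusted p = 9.01e-08). Adamts7 and Mmp15 fell (log2 changes -4.26 and -3.86). Of the leukocyte adhesion genes, 16 of 22 tested members rose, 1 fell and 5 did not pass (median log2 change 1.63). Icam1 was at 9.71, 6.74 and 9.15 CPM in WT and 379, 377 and 255 CPM in Con A (log2 change 5.3 ± 0.35 SE, edgeR adjusted p = 1.50e-06). Vcam1 rose with a log2 change of 2.83. Itgal and Itga4, the leukocyte integrin chains that bind Icam1 and Vcam1, did not pass, with means in WT and Con A of 11.3 and 13.6 CPM for Itgal and 14.1 and 17 CPM for Itga4. Of the scavenger receptors, 11 of 19 tested members rose, 2 fell and 6 did not pass (median log2 change 1.09). Marco, of macrophages, rose from 1.05 ± 0.223 CPM in WT to 10.4 ± 2.3 CPM in Con A (log2 change 3.3 ± 0.29 SE, edgeR adjusted p = 8.46e-06). Cd163, the haptoglobin receptor of resident macrophages, went from 24.1 ± 2.53 CPM in WT to 7.74 ± 2.74 CPM in Con A (log2 change -1.64 ± 0.35 SE, edgeR adjusted p = 0.00219). Of the prostaglandin and leukotriene genes, 14 of 22 tested members rose, 3 fell and 5 did not pass (median log2 change 1.46). Ptgs1, the constitutive cyclooxygenase, fell (log2 change -1.37), and Ptgs2, the inducible one, was at 0, 0.0468 and 0 CPM in WT and 22.5, 13.2 and 23.5 CPM in Con A.

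Markers of blood leukocytes and of resident liver cells were followed as lists. All 17 tested neutrophil markers rose, with summed levels of 83.7, 84.5 and 110.5 CPM in WT and 853, 889 and 871 CPM in Con A. S100a9 was at 2.75, 1.87 and 3.39 CPM in WT and 127, 226 and 142 CPM in Con A (log2 change 5.94 ± 0.36 SE, edgeR adjusted p = 1.00e-06), while Elane and Mpo, markers of immature neutrophils, were under the count filter. Of the monocyte markers, 10 of 13 tested members rose, 2 fell and 1 did not pass (median log2 change 2.62); 1 fell without Con A 3 or WT 1. The NK cell markers summed to 12.3, 12.8 and 14.6 CPM in WT and 90.8, 89.6 and 63.3 CPM in Con A, and 10 of 13 tested members rose, 0 fell and 3 did not pass (median log2 change 2.34). The T cell markers summed to 20.2, 19.2 and 22.8 CPM in WT and 59, 50.5 and 27.9 CPM in Con A, and 9 of 18 tested members rose, 1 fell and 8 did not pass (median log2 change 1.33); 2 fell without Con A 2. Con A 3 was the lowest of the injected libraries in both sums. Of the Kupffer cell markers, 4 of 16 tested members rose, 4 fell and 8 did not pass (median log2 change -0.12); 2 rose without Con A 1, Con A 3, WT 1 or WT 2 and 2 fell without Con A 3, WT 1 or WT 3. Clec4f, the marker most specific to them, fell from 94.4 ± 20.5 CPM in WT to 47.9 ± 9.54 CPM in Con A (log2 change -0.98 ± 0.35 SE, edgeR adjusted p = 0.032; not passed without Con A 2, Con A 3, WT 1 or WT 3, at -1.06 to -0.81 and edgeR adjusted p = 0.0535 to 0.106). Timd4 did not pass. Of the sinusoidal endothelium markers, 7 of 19 tested members rose, 8 fell and 4 did not pass (median log2 change -0.49), with Kdr lower (log2 change -2.62) and Lyve1 higher (log2 change 2.93). Of the stellate cell and fibroblast markers, 2 of 19 tested members rose, 5 fell and 12 did not pass (median log2 change -0.12); 5 rose without Con A 2, 1 rose without Con A 3 or WT 1 and 0 rose without WT 2 or WT 3. In the B and plasma cell list, 0 of 14 tested members rose, 3 fell and 11 did not pass (median log2 change -0.22); 1 rose without Con A 3 and 1 fell without Con A 2, Con A 3 or WT 1. The part of altered cell numbers in the other results was not tested.

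Skeletal muscle transcripts set 1 library apart. The 23 tested skeletal muscle markers summed to 41.6, 34.9 and 38.2 CPM in WT and 11, 20.1 and 2095 CPM in Con A. Of them, 17 of 23 tested members rose, 0 fell and 6 did not pass (median log2 change 6.41); 0 rose without Con A 3, WT 2 or WT 3, 1 rose without WT 1 and 2 fell without Con A 3. The groups did not overlap in 1 of the 23. The other 2 Con A libraries lay below the 3 WT libraries in that sum, so the calls rest on Con A 3. Myh1, a fast myosin heavy chain, was at 0.549, 0.0936 and 0.543 CPM in WT and 0.209, 1.02 and 305 CPM in Con A (log2 change 7.98 ± 2.43 SE, edgeR adjusted p = 0.0157; 8.57 without Con A 1, 8.57 without Con A 2 and not passed without Con A 3, WT 1, WT 2 or WT 3, at 0.64 to 8.28 and edgeR adjusted p = 0.0509 to 0.707). The cholangiocyte marker sum was also highest in Con A 3, at 54.1, 48.7 and 51.4 CPM in WT and 166, 126 and 289 CPM in Con A, and 8 of 11 tested members rose, 1 fell and 2 did not pass (median log2 change 1.38); 5 rose without Con A 1 or WT 2 and 4 rose without WT 3. Of 12 exocrine pancreas markers 1, Cela1, was above the count filter, and it did not pass, at 15.7 CPM in WT and 11.6 CPM in Con A. Without Con A 3, 10417 genes passed.

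Among genes of long noncoding biotypes, falls outnumbered rises. Of 2136 tested, 1060 fell and 245 rose, with a median log2 change of -1.0. They include 642 models of biotype TEC, annotated but not experimentally supported, of which 323 fell and 48 rose. In a list of well-known long noncoding RNAs, 10 of 28 tested members rose, 9 fell and 9 did not pass (median log2 change 0.14); 5 fell without Con A 1 and 4 fell without Con A 3. That list had 35.7% higher and 32.1% lower, near the 32.5% and 30.9% of all genes, so its counts do not set it apart. By comparison, of 13563 protein-coding genes 3762 fell and 4889 rose, with a median of 0.12. In each of 6 bins of mean level, 33.5 to 63.5% of the long noncoding genes fell, against 15.3 to 30.4% of the protein-coding ones. Their summed level was 18000, 18600 and 16100 CPM in WT and 10500, 12500 and 8900 CPM in Con A. In 1269 pairs of a long noncoding gene and a protein-coding gene that overlaps it, the noncoding member was read against its host. A host that overlaps several noncoding genes counts once for each. In the 377 pairs whose host fell, 295 of the noncoding members fell and 7 rose. In the 456 pairs whose host rose, 115 fell and 88 rose. In the 436 pairs whose host did not pass, 204 of the noncoding members fell and 13 rose. The strand setting of the counting is not given in the sources used here, so reads of overlapping genes cannot be told apart. Malat1, an abundant nuclear RNA, fell from 5269.8 ± 318 CPM in WT to 2507 ± 644 CPM in Con A (log2 change -1.07 ± 0.20 SE, edgeR adjusted p = 0.0012). Neat1, the scaffold of paraspeckles, went from 1122 ± 182 CPM in WT to 2132 ± 489 CPM in Con A (log2 change 0.93 ± 0.26 SE, edgeR adjusted p = 0.0101). Mir155hg, the host of miR-155, rose from 0.0747 ± 0.0706 CPM in WT to 1.8 ± 0.98 CPM in Con A (log2 change 4.5 ± 0.66 SE, edgeR adjusted p = 2.37e-04; 5.19 without WT 2). H19, an imprinted RNA of fetal liver and muscle, was at 0.32, 0.0468 and 0.13 CPM in WT and 0, 0.146 and 55.3 CPM in Con A (log2 change 6.78 ± 2.31 SE, edgeR adjusted p = 0.0262; 7.37 without Con A 1, 7.37 without Con A 2 and not passed without Con A 3, WT 1, WT 2 or WT 3, at -1.06 to 7.63 and edgeR adjusted p = 0.0674 to 0.744). Without Con A 3 its log2 change was -1.06, so its call rests on the library that held the muscle transcripts. Gm29685 was at least 138-fold higher in counts (edgeR adjusted p = 7.00e-05; at least 89.2-fold without WT 3 and at least 88.6-fold without Con A 1) and Gm45909 was at least 300.4-fold lower in counts (edgeR adjusted p = 4.23e-06; at least 187-fold without Con A 3).

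**Figure D5:**
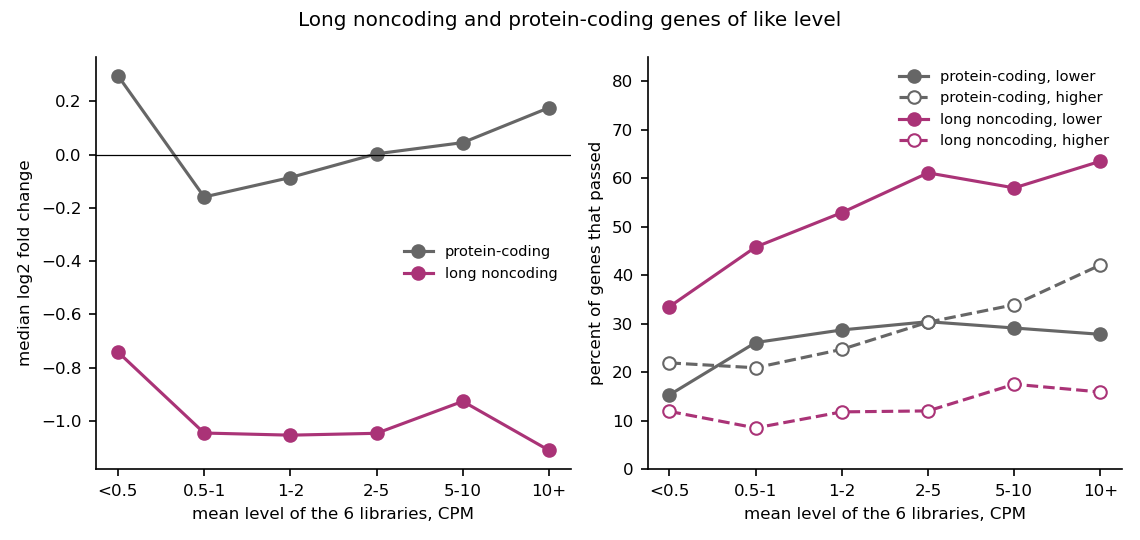
Median log2 change (left) and percent of genes that passed in each direction (right) for long noncoding and protein-coding genes, in 6 bins of the mean level of the 6 libraries in CPM. In every bin the share of long noncoding genes that fell is above that of protein-coding genes, from 33.5% against 15.3% in the lowest bin to 63.5% against 27.8% in the highest.

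Several runs of neighbouring genes changed in the same direction. Along the tested protein-coding genes there were 32 runs of at least 5 neighbours that all rose at least 2-fold and passed, and 9 such runs that fell. The 13563 protein-coding genes along which runs were counted held 4889 that rose and 3762 that fell, by any size of change. Over all 17704 tested genes, of every biotype, 3818 rose and 3804 fell by at least 2-fold and passed. Whether the runs exceed what these counts alone would give was not tested. The longest rising run held 10 genes of the Ly6 family and its neighbours at GRCm38 chr15:74747852-75159126 (median log2 change 2.68). The next held 8 genes with Gbp8, Gbp9, Gbp4, Gbp10 and Gbp6 at chr5:105014150-105613018 (median 4.48). The longest falling run held 8 genes at chr9:21755442-21948907 (median -2.04), with log2 changes from -3.29 to -1.02. The smallest change was that of Rab3d, a secretory GTPase, which fell from 4.87 ± 0.908 CPM in WT to 2.4 ± 0.193 CPM in Con A (log2 change -1.02 ± 0.21 SE, edgeR adjusted p = 0.00187). Both of these rising runs hold family copies, which share sequence as well as place.

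The genes that follow were among the 15 largest rises or the 15 largest falls. Duox2, which makes hydrogen peroxide at epithelial surfaces, was at 0.0458, 0 and 0 CPM in WT and 14.6, 9.02 and 58.8 CPM in Con A, or 1981 times higher in counts (95% interval 355 to 78290, edgeR adjusted p = 3.87e-05; at least 446-fold without WT 1, 1275 times without WT 3 and 786 times without Con A 3). Lypd8, an antibacterial protein of the colon, was at least 112-fold higher in counts (edgeR adjusted p = 1.83e-05; at least 72-fold without WT 3). Nr1h5, a receptor related to FXR, was at 8.93, 9.32 and 12.8 CPM in WT and 0, 0.0485 and 0.0829 CPM in Con A. Tmem25 fell from 143 ± 16.8 CPM in WT to 2.02 ± 1.73 CPM in Con A (log2 change -6.14 ± 0.58 SE, edgeR adjusted p = 1.32e-05; -7.06 without Con A 2), and Hsd3b2, a steroid enzyme, from 127 ± 8.11 CPM in WT to 2.91 ± 1.5 CPM in Con A (log2 change -5.46 ± 0.34 SE, edgeR adjusted p = 1.23e-06). Smad9, of BMP signalling, went from 6.6 ± 1.51 CPM in WT to 0.173 ± 0.111 CPM in Con A (log2 change -5.22 ± 0.43 SE, edgeR adjusted p = 5.93e-06).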

How the data were processed

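Polyadenylated RNA of whole liver was sequenced by the submitters as paired reads, per the labels. The authors deposited raw read counts per gene, 1 file for each library. CASAVA, HISAT2, featureCounts, GRCm38 and mm10 are named in the submitters' processing notes. Versions, strand setting and handling of multiply mapped reads are not given in the sources used here, so overlapping genes and near copies are uncertain.

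Counts were tested as deposited with edgeR 4.0.16 in R 4.3.3. All 9 libraries in 3 groups were fitted, with TMM normalisation, filterByExpr by group (minimum count 10, minimum total 15), the quasi-likelihood F test and Benjamini-Hochberg adjustment over all tested genes. CPM were computed from the counts. Where a group held 3 counts or fewer, the ratio of counts is given with an exact 95% interval, or, at 0, a bound that sets the whole group to 3 counts. Intervals and floors cover counting error only.

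Gene identifiers were matched to GENCODE M21 on GRCm38. RefSeq promoters on GRCm38.p6 were matched by symbol for 78.5% of the protein-coding genes tested, so comparing motifs between sets of genes was void. Members, gene lists and displayed promoters were chosen with earlier results of these data known. Genes named were the largest changes, the smallest p-values in each list, list members that did not pass and the most abundant genes, and others for their role, chosen after their values were seen. Alternatives were RLE size factors, DESeq2 1.42.0, no and stricter filters on low counts, the 6 libraries alone, mitochondrial transcripts left out, a replicate block, an adjusted p of 0.01, and each library left out in turn.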

Additional observations from a re-analysis of the deposited data

How the results depend on the processing

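Against 11219 genes in the fit reported, 10013 (stricter filter) to 11893 (no filter) passed over the alternatives that kept every library. Leaving out each library gave 9937 (without WT 1) to 11637 (without Con A 2), and an adjusted p of 0.01 gave 8784. With the replicate block, 11093 passed. Same-numbered WT and Con A libraries had correlations of deviations of -0.053, 0.1 and 0.075, so the numbers were not taken to pair the mice, and libraries 2 and 3 but not 1 correlated best with their own number. No gene that passed was called in the opposite direction under any of 13 alternatives, and 9750 (without WT 1) to 11170 (RLE size factors) of the 11219 kept call and direction. The stricter filter tested 9820 of them, and 9770 kept theirs. Of 307 named genes, 294 had a value under all 13, and 282 of these kept direction and call in all. 14 named genes lost a call, and the others had no value under at least 1 alternative, such as a filter they did not pass. Ddx3y, named for its level alone, was 1 of those that lost a call (edgeR adjusted p = 0.0679 to 0.206 without Con A 1, Con A 2, Con A 3, WT 1 or WT 3, and 0.0775 with the replicate block). H19 reversed without Con A 3, and its log2 change ran from -1.06 to 7.63 over the libraries left out. Without a filter the edgeR adjusted p of Ccl25, Ccr2 and Nr1h2 was 0.0508, 0.0968 and 0.0919, and with the 6 libraries alone that of Nr1h2 was 0.0527. Of the skeletal muscle markers, 17 rose in the fit reported, 7 with the 6 libraries alone and 9 with the replicate block, and DESeq2 gave no adjusted p for 16 of them. The SOCS list had 3 falls, and 1 with the replicate block or no filter. Complement had 3 falls, and 5 by DESeq2 or with no filter. The tissue factor and fibrinolysis list had 0 falls, and 1 under RLE, DESeq2, the stricter filter, the 6 libraries alone or with mitochondrial transcripts left out. The EGF receptor list had 2 falls, and 4 with the 6 libraries alone or no filter. Of 2002 list counts recomputed, 133 moved by over 1.5 times, or from or to 0. Genes of a few counts per library carry wide intervals, which limits their fold changes.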

Other observations

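Targets of YAP and of serum response factor, which read cell tension and damage, were listed apart from the cytoskeleton, and 12 of 19 tested members rose, 2 fell and 5 did not pass (median log2 change 1.27). Tead1, the DNA-binding partner of YAP, was at 5.68, 5.01 and 6.1 CPM in WT and 97, 39.2 and 86.6 CPM in Con A (log2 change 3.73 ± 0.35 SE, edgeR adjusted p = 1.41e-05). Ier5, an immediate early gene, rose from 2.82 ± 0.658 CPM in WT to 31.8 ± 5.19 CPM in Con A (log2 change 3.49 ± 0.20 SE, edgeR adjusted p = 7.31e-07), and Ccn1, a secreted matrix protein, from 5.27 ± 1.16 CPM in WT to 74.9 ± 58.9 CPM in Con A (log2 change 3.82 ± 0.53 SE, edgeR adjusted p = 1.60e-04; 2.95 without Con A 1). Amotl2, which holds YAP in the cytoplasm, fell from 52.6 ± 5.02 CPM in WT to 13.5 ± 3.81 CPM in Con A (log2 change -1.97 ± 0.31 SE, edgeR adjusted p = 3.91e-04), and Ccn2 did not pass, at 4.26 CPM in WT and 6.84 CPM in Con A.

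Among less abundant cell types, of the dendritic cell markers 5 of 11 tested members rose, 4 fell and 2 did not pass (median log2 change -0.15); 2 fell without WT 3. Clec9a, of cross-presenting dendritic cells, fell from 7.69 ± 1.03 CPM in WT to 1.46 ± 0.651 CPM in Con A (log2 change -2.38 ± 0.32 SE, edgeR adjusted p = 1.34e-04), and Ccr7, of migrating ones, rose (log2 change 3.19 ± 0.85 SE, edgeR adjusted p = 0.00814; 3.99 without WT 3). Of the erythroid markers, 5 of 11 tested members rose, 0 fell and 6 did not pass (median log2 change 0.85), with Hbb-bs, an adult beta-globin, at 36.6, 34.3 and 45.2 CPM in WT and 261, 131 and 93.3 CPM in Con A (log2 change 2.06 ± 0.37 SE, edgeR adjusted p = 7.72e-04). Of the platelet markers, 3 of 6 tested members rose, 2 fell and 1 did not pass (median log2 change 0.56). Pf4, platelet factor 4, rose from 0.458 ± 0.115 CPM in WT to 2.02 ± 0.721 CPM in Con A (log2 change 2.12 ± 0.38 SE, edgeR adjusted p = 8.70e-04), and Clec1b, which sinusoidal endothelium also expresses, fell (log2 change -1.36 ± 0.24 SE, edgeR adjusted p = 7.51e-04). In the adipocyte and mesothelium list, 3 of 14 tested members rose, 1 fell and 10 did not pass (median log2 change 0.18); 1 rose without WT 1 and 2 fell without WT 3. Adipoq, the adipocyte marker, did not pass, at 1.99 CPM in WT and 0.783 CPM in Con A, and Cidec, a lipid droplet protein that fatty hepatocytes also make, rose from 8.65 ± 1.27 CPM in WT to 26.9 ± 10.7 CPM in Con A (log2 change 1.63 ± 0.25 SE, edgeR adjusted p = 3.40e-04). Of the mast cell, basophil and eosinophil markers, 1 of 4 tested members rose, 1 fell and 2 did not pass (median log2 change 0.39); 2 rose without Con A 1, and Ccr3, the eosinophil receptor for Ccl11, fell from 4.29 ± 0.769 CPM in WT to 1.1 ± 0.265 CPM in Con A (log2 change -1.96 ± 0.39 SE, edgeR adjusted p = 0.00166).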
